A study of Mus musculus with 19 samples.

Results

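Mouse NIH3T3 cells given basic fibroblast growth factor (FGF) for 12 h were compared with the same cells in quiescence, across all genes of a whole-genome Affymetrix expression array. NIH3T3 is an established line of mouse embryo fibroblasts. The FGF 12 h group had 2 arrays, from cells serum-starved for 48 h in medium with 0.1% serum and then stimulated with FGF at 50 ng/ml for 12 h. The quiescent group had 3 arrays, from cells starved in the same way and not stimulated (0 h). These are 5 of the 19 arrays of the series, chosen by their sample labels, and each array is 1 sample. Experiment 1 holds FGF 12 h replicate 1 and quiescent replicates 1a and 1b, which were averaged before testing. Experiment 2 holds FGF 12 h replicate 2 and quiescent replicate 2. Neither group carried an inhibitor. The remaining arrays hold FGF for 1, 4 and 7 h and arms with U0126, an inhibitor of the ERK-activating kinase MEK. The labels do not say that replicates were separate cultures. The p-values measure the spread between samples, pooled over all groups of the series, and that spread may be technical. No array of unstimulated cells at 12 h was analysed here, so FGF and time in culture cannot be told apart.

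Fibroblasts deprived of serum leave the cell cycle and rest in a state called quiescence or G0. A growth factor such as FGF binds a receptor tyrosine kinase, activates the ERK and PI3K pathways, and leads the cells over several hours through G1 towards DNA replication. In resting cells the pocket proteins of the RB family hold E2F transcription factors on the promoters of replication genes. Once cyclin D and cyclin E kinases phosphorylate the pocket proteins, E2F genes are transcribed. Genes of mitosis follow later in the cycle, through the MuvB complex with B-MYB and FOXM1 and a promoter element called CHR. Falling transcripts in such a transition include those kept high in rest by FOXO factors, which PI3K signalling removes from the nucleus. The series title places the comparison at the passage from G0/G1 to S phase.

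Values are MAS5 signals, a linear fluorescence measure scaled to a common trimmed mean on each array. Signals are comparable between arrays for 1 probe set, but not between genes. The median signal per array was 70.5 and 85.3 in the FGF 12 h group, against values between 70.1 and 75 in the quiescent group, and precision is limited by how few arrays there are. All 12 fibroblast markers, such as collagens and Vim, were above the median of all values (73.9) in both groups. Their summed signal was 191000 at 12 h and 225000 in quiescent cells. Of the 12, 5 fell (41.7%, against 17.6% of all genes tested), among them Col1a1, Thy1 and Ddr2. The summed signal of 7 macrophage markers was 1680 at 12 h and 1270 in quiescent cells. Of these 1, Cd14, rose (14.3%, near the 12.4% of all genes tested). Of the 8 epithelial (609 at 12 h, 695 in quiescent cells) and 6 endothelial markers (240 at 12 h, 217 in quiescent cells), none passed, and no endothelial marker was above the median. Among 7 muscle markers (summed signal 448 at 12 h, 483 in quiescent cells) 1 fell, a share of 14.3%, near the 17.6% of all genes tested. Of 4 adipocyte markers 1 fell, the lipase Lpl, which held most of the list's summed signal of 8740 at 12 h and 16500 in quiescent cells. The part of any shift in cell types in the results below was not tested. The actin gene Actb had 23799.7 and 32307 at 12 h and 26243, 26241 and 23079 in quiescent cells, and its groups overlapped.

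Of 18193 genes with a probe set of their own, 14996 passed the filter on low signals and were tested. In the fit across these genes 4503 passed at an adjusted p under 0.05, which is 30.0% of them. Of these 1862 rose (12.4%) and 2641 fell (17.6%). At least 2-fold changes that passed were found for 1331 genes (8.88%), 641 higher (4.27%) and 690 lower (4.6%). Larger changes were mostly rises: 157 genes rose and 76 fell at least 4-fold, and 32 rose and 12 fell at least 8-fold. The median difference over all genes was -0.01 on the log2 scale. It was -0.04 under quantile normalization and 0.02 when arrays were scaled to their 75th percentile, and the lower share of calls was 58.65%, 57.62% and 54.2% in turn. In both experiments 4501 of the 4503 moved the same way, a share that follows largely from the call itself, since the same arrays made it. Without any overlap of single arrays, both FGF 12 h arrays lay above all quiescent arrays for 3268 genes (21.8%) and below them for 3847 (25.7%). In 81 genes at least 2-fold higher and 82 at least 2-fold lower, the mean of the low group was under 45.2, a background limit set at the 40th percentile of all signals. Such low means may hold no signal above background, and how large those changes come out depends on the offset added before taking logs.

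**Figure D1:**
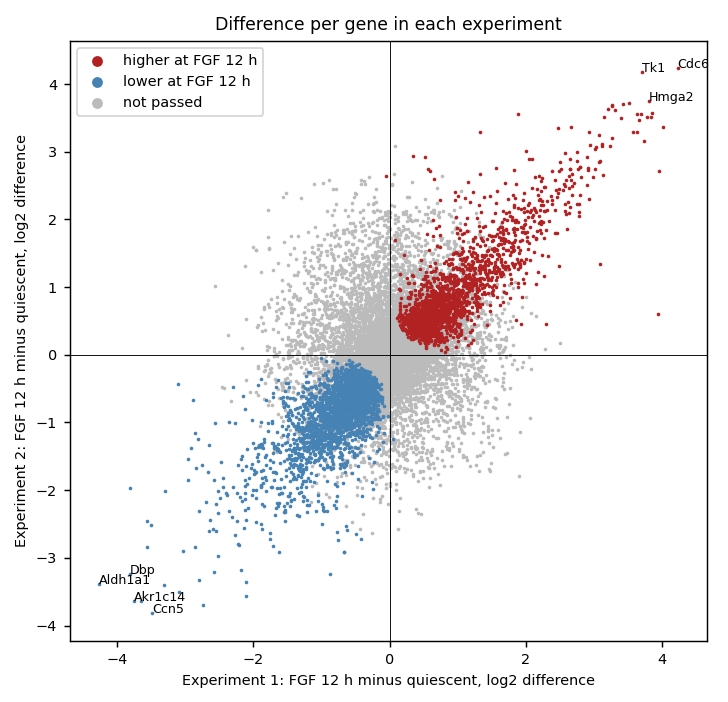
Each point is 1 of the 14996 genes, placed by its log2 difference of FGF 12 h minus quiescent in experiment 1 (x axis) and in experiment 2 (y axis). Red marks the 1862 genes that rose, blue the 2641 that fell and grey the genes that did not pass, and nearly all coloured points lie in the quadrants of equal sign.

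The largest rises were led by the machinery of DNA synthesis, beside a chromatin protein, a chemokine and a cytokine. Signals are given in the order of experiments 1 and 2 for FGF 12 h and of replicates 1a, 1b and 2 for quiescent cells, and differences are log2 values ± SE from the fit. Cdc6, which loads the replicative helicase onto origins, had signals of 1938 and 1673 at 12 h, against 74.9, 109.6 and 75.8 in quiescent cells. Both FGF arrays thus lay far above the quiescent ones, and the rise was 4.23 ± 0.39 (adjusted p = 2.28e-07). Tk1, the thymidine kinase of the salvage pathway, had 4224 and 2974 at 12 h and 216, 446 and 152 in quiescent cells, a rise of 3.94 ± 0.24. Cyclin E2 (Ccne2), a partner of CDK2 at the start of S phase, had 2686 and 1531 at 12 h and 171, 176 and 117 in quiescent cells, and rose by 3.71 ± 0.29. In these genes experiment 1 gave the higher FGF value. The exonuclease Exo1, which acts in mismatch repair and resection, rose by 3.69 ± 0.28, with 1172 and 838 at 12 h and 48.2, 74.1 and 68.9 in quiescent cells. Rrm2, the small subunit of ribonucleotide reductase, had 10421 and 8195 at 12 h and 892, 1041 and 616 in quiescent cells, a rise of 3.56 ± 0.17 (adjusted p = 1.63e-10). Mcm3, a subunit of the helicase itself, had 5469 and 4733 at 12 h and 483, 603 and 374 in quiescent cells, and rose by 3.46 ± 0.16. The groups stood apart for every gene of this set, which follows largely from choosing the largest rises.

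Further rises of this size came from genes that hold sister chromatids together and place new histones. Dscc1, a subunit of a clamp loader used in cohesion, had 1771 and 1359.8 at 12 h and 110.4, 142 and 103 in quiescent cells, a rise of 3.62 ± 0.29. Esco2, the acetyltransferase that locks cohesin on replicated DNA, rose by 3.47 ± 0.36, and sororin (Cdca5), which protects that cohesin, by 3.46 ± 0.23. Asf1b, a chaperone of newly made histones, had 3223 and 2132 at 12 h and 201, 309 and 169 in quiescent cells, and rose by 3.59 ± 0.19. Lrr1, a ubiquitin ligase receptor that helps unload finished replisomes, rose by 3.68 ± 0.57, and its quiescent signals of 48.4, 42.2 and 40.1 averaged under the background limit, against 828 and 601 at 12 h. Genes outside the cell cycle were in the same range. Hmga2, an architectural chromatin protein of embryonic and transformed cells, reached 12112 and 13005 at 12 h, against 587, 1248 and 959 in quiescent cells, a rise of 3.77 ± 0.25. The monocyte attractant Ccl2 had 6725 and 7318 at 12 h and 399, 671 and 646 in quiescent cells, and rose by 3.57 ± 0.20. The epithelial-type cytokine Tslp had 561 and 884 at 12 h, against 14.7, 76.7 and 54.7 in quiescent cells, and rose by 3.61 ± 0.29. The orphan receptor Gpr149 had 1749.9 and 2272 at 12 h and 123, 108 and 186 in quiescent cells, a rise of 3.65 ± 0.27. Unlike the replication genes above, Hmga2, Ccl2, Tslp and Gpr149 had their higher FGF value in experiment 2.

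The largest falls were in enzymes of retinoid and steroid metabolism, secreted matrix proteins and clock genes. Aldh1a1, which makes retinoic acid, had 21.5 and 14.1 at 12 h, below the background limit, against 1096, 400.0 and 275 in quiescent cells, and fell by 3.83 ± 0.27. Its relative Aldh1a7 had 40.1 and 54.9 at 12 h and 1172, 465 and 253 in quiescent cells, and fell by 2.89 ± 0.37. Akr1c14, a hydroxysteroid dehydrogenase, had 343 and 161 at 12 h and 6595, 3498 and 2162 in quiescent cells, a fall with the smallest adjusted p of this group (-3.70 ± 0.15, adjusted p = 3.9e-11). For all 3 enzymes quiescent replicate 1a was the highest array. The matricellular protein Ccn5 had 245 and 199.9 at 12 h and 2934, 2833 and 2999 in quiescent cells, and fell by 3.65 ± 0.17. Serpinb1a, an inhibitor of neutrophil-type proteases, had 145 and 138 at 12 h and 2093, 1873 and 1864 in quiescent cells, and fell by 3.64 ± 0.22. Replicates of both genes lay close together, and the groups were more than 8-fold apart. Ogn, a small leucine-rich proteoglycan, had 869.6 and 1028 at 12 h and 10489, 10362 and 7438 in quiescent cells, and its relative Aspn had 64.5 and 61.6 at 12 h and 1230.2, 666 and 399.6 in quiescent cells. They fell by 3.20 ± 0.18 and by 3.01 ± 0.26. Pappa, a protease that frees insulin-like growth factors from a binding protein, fell by 3.36 ± 0.32, to 49 and 42.6 at 12 h, against 754, 493 and 578 in quiescent cells.

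Others among these falls were regulators of transcription, adhesion and defence. The clock-output factor Dbp had 138 and 139.8 at 12 h and 1812, 2486 and 1430.3 in quiescent cells, and fell by 3.52 ± 0.27. The period protein Per3 had 66.2 and 109.5 at 12 h and 916, 872 and 692 in quiescent cells, and fell by 3.01 ± 0.27. The interferon-induced GTPase Gbp2 had 95.4 and 62.3 at 12 h and 905, 919.6 and 848 in quiescent cells, and fell by 3.30 ± 0.20. All quiescent arrays were high and both FGF arrays low for these genes, which follows largely from choosing the largest falls. The transcription factor Sox6 fell by 2.97 ± 0.20 and Ypel2 by 3.07 ± 0.24. The adhesion adaptor Lims2 (43.3 and 23.5 at 12 h, 291, 463 and 468 in quiescent cells) and endothelin 1 (Edn1, 13.8 and 15.8 at 12 h, 108, 207 and 258 in quiescent cells) ended below the background limit, so the size of their falls, -3.22 ± 0.38 and -2.90 ± 0.39, depends on the offset. The 15 largest rises and 15 largest falls passed under the other processing settings in which they were tested, which was a condition for naming them. That condition left out the fit of the compared groups alone and the test of every probe set on its own. In the latter, not every probe set of these genes passed, as for Esco2 (1 of 2 called, the other giving 0.87).

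**Figure D2:**
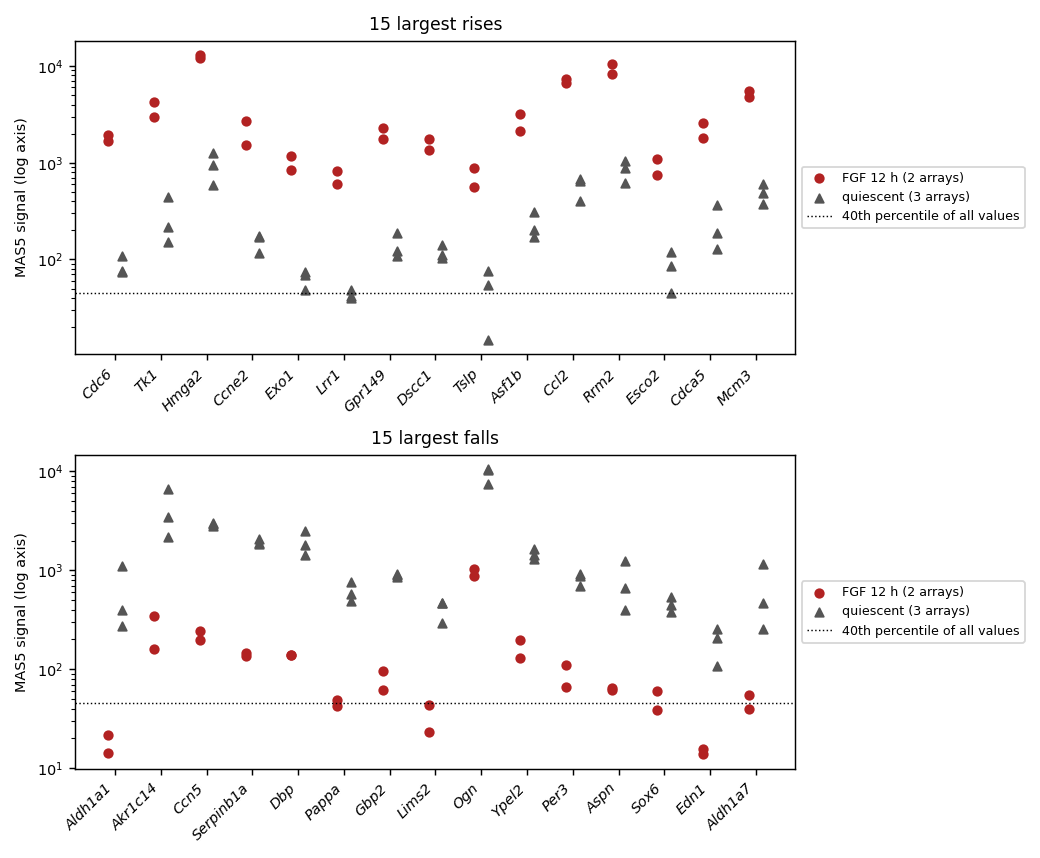
MAS5 signal on a log axis for the 15 genes with the largest rises (upper panel) and the 15 with the largest falls (lower panel), as named by the rule in the methods. Circles are the 2 FGF 12 h arrays, triangles the 3 quiescent arrays, and the dotted line is the 40th percentile of all values (45.2). No gene has overlapping groups, which follows largely from choosing the largest changes. For Aldh1a1, Lims2 and Edn1 both circles lie below the line.

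Genes that prepare origins for replication rose almost as a block. Of 27 genes of origin licensing and helicase assembly, all tested, 23 rose and none fell, against 12.4% of all genes, with a median difference of 2.02 and a range from -0.33 to 4.23. In RNA from whole cultures, a change in the number of cells that express a gene and a change in RNA per cell cannot be told apart. The helicase subunit Mcm5 had 7895 and 6836 at 12 h and 731, 983 and 536 in quiescent cells, a rise of 3.42 ± 0.16 (adjusted p = 1.23e-10). Mcm6 had 7127 and 6369 at 12 h and 829.6, 1029.6 and 640.0 in quiescent cells, and rose by 3.11 ± 0.19. Gins1, part of the complex that activates the helicase, rose by 3.16 ± 0.25, with 1379 and 1264 at 12 h and 142, 128 and 136 in quiescent cells. Proteins working at the fork followed the same pattern: of 32 tested (33 listed) 31 rose, with a median of 1.70 and a lowest value of 0.23. Clspn, which carries the checkpoint signal at stalled forks, rose by 3.33 ± 0.28, the nuclease Dna2 by 3.12 ± 0.22 and the single-strand binding subunit Rpa2 by 3.02 ± 0.20. Pole, the leading-strand polymerase, had 1180.5 and 1017 at 12 h and 122, 178 and 123 in quiescent cells, a rise of 2.90 ± 0.25. The assembly factor subunit Chaf1b rose by 2.81 ± 0.26, with 1 of its 2 probe sets called and the other giving 0.13.

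Enzymes that supply nucleotides rose in 25 of 29 tested cases (31 listed), 1 fell, and the median was 1.21. Besides Tk1 and Rrm2, deoxycytidine kinase (Dck) had 4554 and 2534 at 12 h and 1204, 813 and 506 in quiescent cells, and rose by 2.24 ± 0.15. Thymidylate synthase (Tyms) had 333 and 348 at 12 h and 75.3, 58.6 and 66.8 in quiescent cells, a rise of 2.14 ± 0.33. Rrm1, the large reductase subunit, had 5302 and 4196 at 12 h and 935, 1424 and 1081 in quiescent cells, and rose by 2.06 ± 0.15. Both reductase subunits thus rose, and the small one, which is made anew in each S phase, did so by more on the log2 scale. Whether that difference exceeds the spread was not tested.

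Promoter windows of these genes were searched for short words bound by the factors named above. The windows, from RefSeq on build GRCm38.p6, run from 250 bases before to 50 after the annotated start, and the first window listed for a gene was used. As E2F words TTGGCGC or TTCGCGC or TTCCCGC or TTGCCGC were sought on both strands, for CHR the word TTTGAA, and for the CCAAT box that word. Words of the same kind can overlap, and CCAAT read on the other strand can overlap an E2F word. The following upstream stretches, read 5′ to 3′ on the gene's strand, belong to genes that rose and were chosen because they hold such words. Capitals mark E2F words in the first 5.
Mcm6 (chr1:128359736-128359820, minus strand): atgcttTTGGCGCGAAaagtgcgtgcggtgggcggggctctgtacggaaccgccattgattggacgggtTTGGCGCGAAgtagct
Mcm5 (chr8:75109339-75109378, plus strand): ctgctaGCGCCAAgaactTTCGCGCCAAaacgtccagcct
Rrm1 (chr7:102441615-102441644, plus strand): gcaggagaactcgTTCCCGCcaggtccgct
Hells (chr19:38930920-38930959, plus strand): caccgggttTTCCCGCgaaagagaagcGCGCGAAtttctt
Uhrf1 (chr17:56303272-56303306, plus strand): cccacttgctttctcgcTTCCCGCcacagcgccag
In Mcm6 and Mcm5 E2F words on opposite strands overlap. In the next stretches capitals mark CHR and CCAAT words, and E2F words in E2f8.
E2f8 (chr7:48881602-48881711, minus strand): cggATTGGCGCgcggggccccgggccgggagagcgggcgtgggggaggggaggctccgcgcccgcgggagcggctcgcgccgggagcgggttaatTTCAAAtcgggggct
Cdk1 (chr10:69352918-69352992, minus strand): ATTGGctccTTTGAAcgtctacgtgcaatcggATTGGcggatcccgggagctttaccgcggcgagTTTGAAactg
Cdca5 (chr19:6085037-6085096, plus strand): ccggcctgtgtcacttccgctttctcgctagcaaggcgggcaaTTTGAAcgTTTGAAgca
In E2f8 the CCAAT word on the other strand overlaps the E2F word at the left end. In the stretches shown, Cdk1 holds a pair of CHR words and a pair of CCAAT words, and Cdca5 has CHR words close to its start. Outside its stretch, the Cdk1 window also holds a CCAAT word at -208 and E2F words at -178 and -130 from the start. The Cdca5 window holds an E2F word at 14.

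An E2F word was found in 32.0% of the 518 windows of genes at least 2-fold higher (641 genes), in 11.6% of the 552 windows of genes at least 2-fold lower (690 genes) and in 15.5% of the 12040 windows of all genes tested. Over all 27025 promoters of the table the share was 9.69%. CHR was found in 20.8% of the higher, 10.9% of the lower and 12.5% of all tested windows, and in 18.1% of all promoters of the table. Among origin licensing genes 57.1% of 21 windows held an E2F word and among fork genes 55.6% of 27. CHR was found in 78.3% of 23 windows of spindle and cytokinesis genes and in 52.6% of 19 windows of mitotic kinases and cyclins. Of 27 windows of kinetochore and centromere genes 37.0% held CHR and 37.0% an E2F word. CCAAT was in 49.4% of higher, 42.8% of lower and 38.3% of all tested windows, and in 37.9% of all promoters of the table. Among the gene lists searched its share ran from 35.5% (ribosome biogenesis) to 73.7% (mitotic kinases and cyclins). The E-box CACGTG, bound by clock and MYC proteins, was in 8.88% of higher, 7.97% of lower and 9.53% of all tested windows. Its share was 29.4% of 17 clock gene windows, 23.5% of 34 quiescence and FOXO windows and 22.6% of 31 ribosome biogenesis windows. In the other lists searched it ran from 3.7% (kinetochore and centromere) to 14.8% (replication fork). TGTTTAC, a FOXO word, was in 4.05% of higher, 4.53% of lower and 2.69% of all tested windows. It was in 3.55% of all promoters of the table and in 14.7% of 34 windows of the quiescence and FOXO list. These are counts of letters in fixed windows, with no test.

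**Figure D3:**
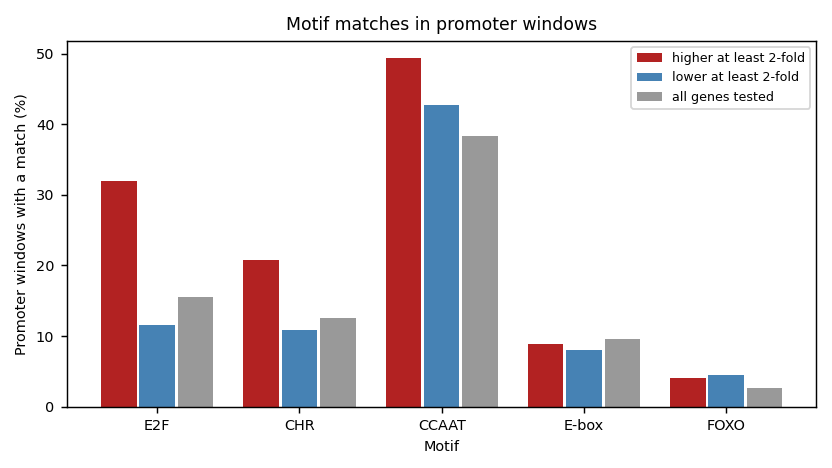
Share of promoter windows (y axis, percent) that hold a word of each motif (x axis). Red bars are genes at least 2-fold higher at FGF 12 h (518 windows), blue bars genes at least 2-fold lower (552) and grey bars all genes tested (12040). The red bar exceeds the grey one by the widest margin for E2F, 32.0% against 15.5%.

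Of 12 E2F and pocket protein genes tested (13 listed) 7 rose (58.3%, against 12.4% of all genes), with a median of 1.23. The 2 that fell (16.7%) were near the 17.6% of all genes. The repressor E2f8, which peaks in S phase, had 1143 and 874 at 12 h and 80.9, 86.5 and 77.3 in quiescent cells, and rose by 3.43 ± 0.43 (adjusted p = 7.09e-06). Its partner E2f7 had 1742 and 1361 at 12 h and 429, 495 and 559 in quiescent cells, a rise of 1.58 ± 0.21. The activators E2f3 and E2f1 rose by 1.12 ± 0.13 and 1.80 ± 0.18, with E2f1 at 1500.5 and 1206 at 12 h and 401, 318 and 398 in quiescent cells. For E2f1 the probe set of highest variance gave 0.77 and did not pass (adjusted p = 0.483). E2f2 had 222 and 217 at 12 h and 37.1, 54.7 and 15 in quiescent cells, which averaged under the background limit, and its rise of 2.50 ± 0.55 was lost without quiescent replicate 2 (adjusted p = 0.0653). The dimer partner Tfdp1 had 5677 and 5323 at 12 h and 2382, 2285 and 2013 in quiescent cells, and rose by 1.34 ± 0.10. Of the pocket proteins, p107 (Rbl1), itself a known E2F target, had 2513 and 1867 at 12 h and 512, 539 and 376 in quiescent cells, a rise of 2.25 ± 0.18. Of 3 Rbl1 probe sets 2 were called higher, and the lowest gave -0.32. p130 (Rbl2), the pocket protein most abundant in resting cells, moved the other way, with 586 and 617 at 12 h and 769, 839.8 and 1122 in quiescent cells, and fell by 0.65 ± 0.16. That call was lost without quiescent replicate 2 (-0.42, adjusted p = 0.144). Rb1 had 1378 and 756 at 12 h and 1722, 1620.1 and 1421 in quiescent cells, and its fall of -0.59 ± 0.20 was lost without the experiment term (adjusted p = 0.104), when quiescent replicate 2 was left out (0.117) and when FGF 12 h replicate 2 was left out (-0.19, 0.589). E2f4 (0.47), E2f5 (0.36) and Tfdp2 (0.40) did not pass, with adjusted p of 0.0538, 0.169 and 0.0766. E2f4 and E2f5 passed without quiescent replicate 1a (0.0418 and 0.0312), and Tfdp2 without FGF 12 h replicate 2 (0.0192).

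Of the 8 genes of MuvB, B-MYB and FOXM1, 5 rose and none fell, with a median of 0.75. B-MYB (Mybl2), which joins MuvB in S phase, had 574 and 422 at 12 h and 90.6, 71.2 and 51.4 in quiescent cells, and rose by 2.69 ± 0.39. Lin54, the subunit that reads the CHR element, had 1028 and 730.2 at 12 h and 343, 306 and 212 in quiescent cells, a rise of 1.68 ± 0.17. Only 1 of its 2 probe sets was called, the other giving 0.51. Lin9 was 0.56 ± 0.33, Lin37 -0.32 ± 0.18 and Lin52 0.22 ± 0.45, and these did not pass. Foxm1, the activator of late mitotic genes, had 286 and 236 at 12 h and 71, 132 and 169.8 in quiescent cells. Its rise of 0.94 ± 0.34 (adjusted p = 0.042) was lost without the experiment term (0.0978), without FGF 12 h replicate 1 (0.343) and without quiescent replicate 1a (0.104) or 2 (0.0617). All 3 Foxm1 probe sets were called higher, from 0.94 to 2.26. Mybl1 rose by 1.44 ± 0.39, a call lost without quiescent replicate 2 (0.051) or FGF 12 h replicate 1 (0.0838). Rbbp4, also a MuvB subunit, rose by 0.33 ± 0.11, and lost its call without quiescent replicate 2 (0.298) or FGF 12 h replicate 2 (0.449) and without the experiment term (0.16).

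Of 15 late G1 cyclins, kinases and regulators 9 rose and none fell, with a median of 1.29. Cyclin E1 (Ccne1) had 1649.6 and 1155 at 12 h and 83.8, 105 and 164 in quiescent cells, and rose by 3.33 ± 0.27. Cyclin A2 (Ccna2), needed through S phase, had 2304 and 1806 at 12 h and 435, 542 and 326 in quiescent cells, a rise of 2.32 ± 0.19. Fbxo5, which holds back the anaphase-promoting complex, rose by 2.58 ± 0.24, and Skp2, which targets the inhibitor p27 for degradation, by 2.07 ± 0.18. Cyclin D1 (Ccnd1) had 5976 and 5388 at 12 h and 1939.7, 2111 and 2502 in quiescent cells, and rose by 1.33 ± 0.14. The other D cyclins gave -0.15 ± 0.10 (Ccnd2) and 0.40 ± 0.16 (Ccnd3) and did not pass. For Ccnd2 the probe set of highest variance was higher, at 0.64 (adjusted p = 0.0215), so its direction depends on the probe set. The phosphatase Cdc25a, which activates CDK2, had 823 and 805 at 12 h and 221, 218 and 193 in quiescent cells, and rose by 1.91 ± 0.18. Cks1b, a CDK subunit that also serves Skp2, rose by 0.99 ± 0.10. Cdc25c rose by 1.29 ± 0.40, a call lost without quiescent replicate 1a (0.14) or either FGF 12 h array (0.0739 and 0.113), and Cdc25b was 0.17 ± 0.22 and did not pass. The kinases themselves were 0.29 ± 0.12 (Cdk4), 0.34 ± 0.13 (Cdk6) and 0.74 ± 0.39 (Cdk2), with adjusted p of 0.0859, 0.0539 and 0.182. Each passed without 1 array: Cdk4 without quiescent replicate 1b (0.0265), Cdk6 without that array or FGF 12 h replicate 2 (0.0411 and 0.0283), and Cdk2 without FGF 12 h replicate 2 (0.0314). Of 3 Cdk6 probe sets 1 was called higher, the most variable one, at 0.93 (adjusted p = 0.0242).

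Of 5 CDK inhibitors tested (7 listed) 3 fell and none rose, against 17.6% of all genes lower. p27 (Cdkn1b), the inhibitor that builds up in resting cells, had 767 and 541 at 12 h and 1795, 1352 and 1249 in quiescent cells, and fell by 1.10 ± 0.21. p18 (Cdkn2c), an inhibitor of CDK4 and CDK6, had 3729.5 and 3854 at 12 h and 6118, 5813 and 5799.7 in quiescent cells, and fell by 0.63 ± 0.12. p21 (Cdkn1a) had 3864 and 4292 at 12 h and 4921, 5614 and 8343 in quiescent cells. Its fall of -0.70 ± 0.12 was lost without the experiment term (adjusted p = 0.0733) and with Cdkn1a's most variable probe set (-0.55, adjusted p = 0.207). p19 (Cdkn2d, 0.02 ± 0.20) did not pass, nor did Cdkn2a, whose signals of 15.1 and 70.3 at 12 h and 25.9, 14.7 and 31.7 in quiescent cells averaged under the background limit.

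Of 22 mitotic kinases and cyclins tested (23 listed) 19 rose, of 30 kinetochore and centromere genes (31 listed) 25 rose, and of 27 spindle and cytokinesis genes (28 listed) 25 rose. None fell in any of these lists, and the medians were 1.70, 1.70 and 1.72. Cdk1, the kinase that starts mitosis, had 5928 and 4400.4 at 12 h and 923, 1303 and 722 in quiescent cells, and rose by 2.50 ± 0.16 (adjusted p = 4.11e-09). Aurora B (Aurkb), which corrects chromosome attachment, had 1088 and 683 at 12 h and 125.6, 178 and 81.8 in quiescent cells, a rise of 2.81 ± 0.26. The spindle checkpoint genes Bub1 and Mad2l1 rose by 2.78 ± 0.25 and 2.67 ± 0.15, and Pkmyt1, which restrains Cdk1, by 2.50 ± 0.42. At the centromere Cenpi had 928 and 627 at 12 h and 123, 78 and 75.1 in quiescent cells, and rose by 2.96 ± 0.29. Cenph rose by 2.59 ± 0.27, Cenps by 2.42 ± 0.40, and Spc24 and Spc25, paired subunits of the microtubule-binding NDC80 complex, by 2.42 ± 0.35 and 2.34 ± 0.27. On the spindle, survivin (Birc5) had 3138 and 2069.7 at 12 h and 418, 589 and 322 in quiescent cells, a rise of 2.63 ± 0.18, and its partner Incenp rose by 2.49 ± 0.15. Cep55 and Ect2, which act in cytokinesis, rose by 2.77 ± 0.24 and 2.31 ± 0.36, and the kinesin Kif20b by 2.28 ± 0.30. In these genes every 12 h array exceeded every quiescent array, as in 21.8% of all genes. That follows largely from naming the largest changes. Experiment 1 gave the higher 12 h value except for Kif20b.

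Of 23 cohesin and condensin genes 13 rose (56.5%) and 2 fell (8.7%), against 12.4% and 17.6% of all genes, with a median of 0.44. Beside Esco2 and Cdca5, the condensin subunits Smc2 and Ncapg2 rose by 2.53 ± 0.15 and 2.60 ± 0.18, and shugoshin (Sgo1), which guards centromeric cohesin, by 2.62 ± 0.27. The cohesin subunit Stag2 went the other way, with 1892 and 1919 at 12 h and 2572, 2751 and 2824 in quiescent cells, and fell by 0.52 ± 0.11. In homologous recombination 11 of 18 tested genes (21 listed) rose and 1 fell, with a median of 1.00. Rad54l had 1515 and 1102 at 12 h and 113, 151 and 85.3 in quiescent cells, a rise of 3.45 ± 0.27, and Rad51ap1 rose by 3.44 ± 0.36. Brca1 had 1115 and 817 at 12 h and 133, 119.6 and 111 in quiescent cells, and rose by 2.88 ± 0.26, and its helicase partner Brip1 by 2.49 ± 0.42. Mismatch repair and Fanconi genes rose in 10 of 16 tested cases (19 listed), none fell, and the median was 0.96. Fancb rose by 2.44 ± 0.29, Fanca by 1.94 ± 0.20 and Msh6 by 1.49 ± 0.12. Of 15 damage checkpoint genes 10 rose and 1 fell, with a median of 0.83. The kinase Chek1 had 1458 and 1140.3 at 12 h and 241, 265 and 206 in quiescent cells, a rise of 2.43 ± 0.18, and Chek2 rose by 1.90 ± 0.27. Dtl, which directs the destruction of the licensing factor CDT1 in S phase, rose by 2.76 ± 0.23, the ubiquitin ligase Rad18 by 2.26 ± 0.22 and the deubiquitinase Usp1 by 1.20 ± 0.11.

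Chromatin factors tied to replication rose in 15 of 19 tested cases (21 listed) and none fell, with a median of 1.37. Uhrf1, which keeps DNA methylation on new strands, had 2511 and 2279 at 12 h and 168, 215 and 221 in quiescent cells, a rise of 3.46 ± 0.22. The remodeller Hells had 4079 and 3192 at 12 h and 513, 479 and 375 in quiescent cells, and rose by 3.02 ± 0.15 (adjusted p = 1.63e-10). The histone carrier Nasp rose by 1.97 ± 0.14. The methyltransferase Suv39h2 rose by 2.91 ± 0.43, with 232 and 190.1 at 12 h, against 78.7, 7.6 and 6.4 in quiescent cells, which averaged under the background limit. Only 11 of 52 replication-dependent histone genes and their regulators listed could be tested. Of these 2 rose and 2 fell (18.2% each), near the 12.4% and 17.6% of all genes. The stem-loop binding protein Slbp, which histone mRNAs need, had 6265 and 5794 at 12 h and 2429, 2549 and 2442 in quiescent cells, and rose by 1.28 ± 0.10. The linker histone H1f2 fell by 2.56 ± 0.27, with 323 and 404 at 12 h and 2118, 2580.3 and 2051 in quiescent cells. Of 3 H1f2 probe sets 2 were called lower, and the smallest fall among the 3 was -0.03. Histone genes have near-identical copies that a probe set may share.

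**Figure D4:**
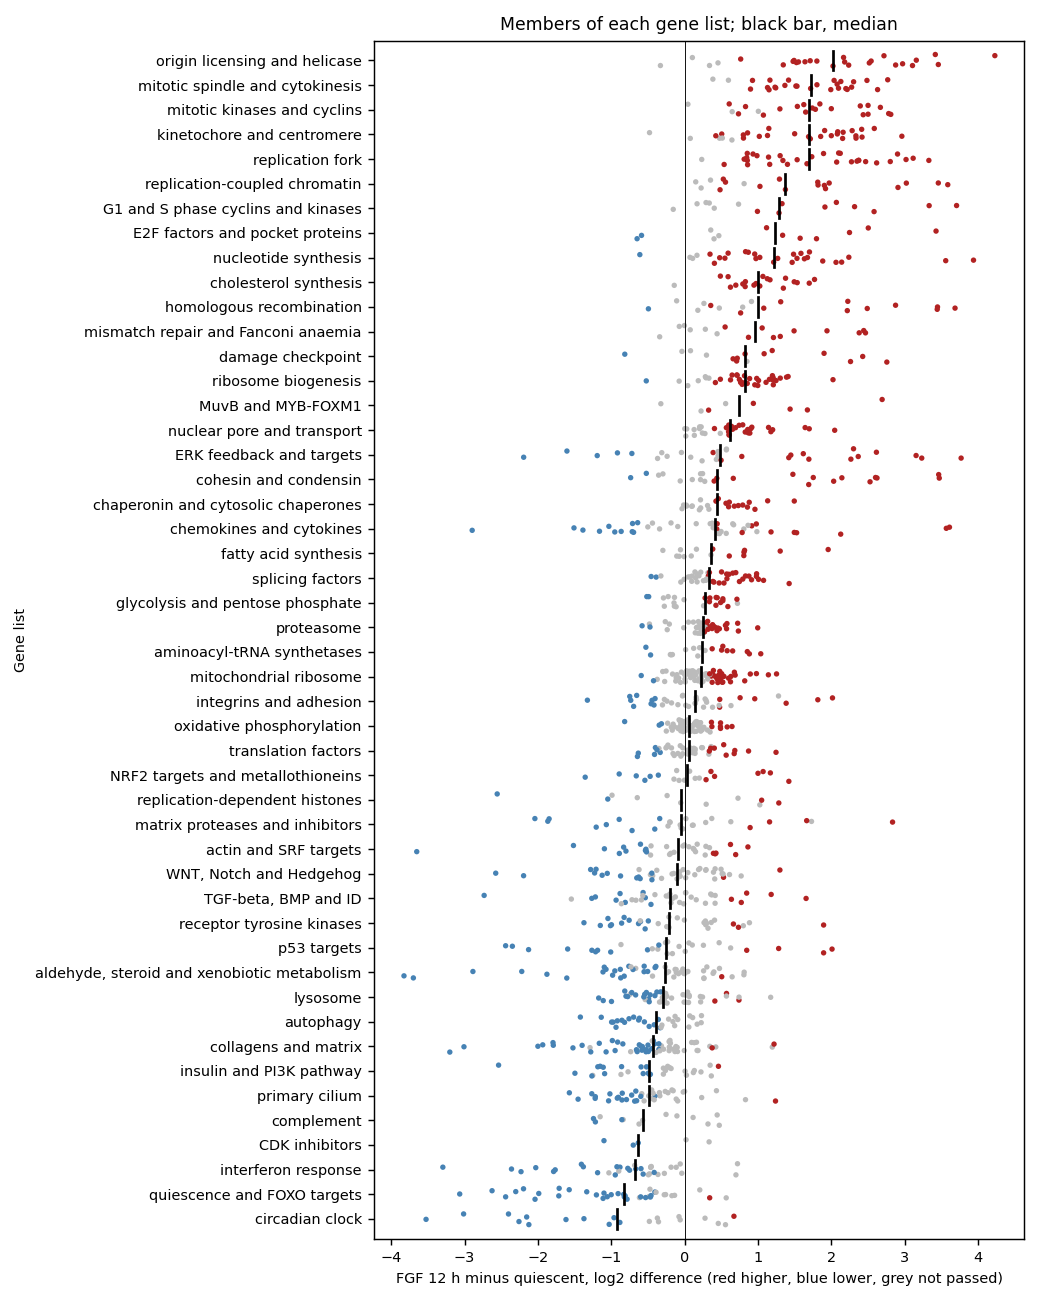
Each point is 1 tested gene, placed by its log2 difference of FGF 12 h minus quiescent (x axis) within its gene list (y axis, lists ordered by their median). Red points rose, blue points fell, grey points did not pass, and black bars are medians, which run from 2.02 for origin licensing to -0.92 for the circadian clock.

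Genes for making ribosomes and moving cargo through the nuclear envelope rose by less. Of 36 ribosome biogenesis genes 29 rose and 1 fell, with a median of 0.82 and a highest value of 2.02. That highest value was dyskerin (Dkc1), which modifies ribosomal RNA, with 2599 and 2164 at 12 h and 907, 534 and 471 in quiescent cells, a rise of 2.02 ± 0.15. Its partner Nhp2 had 7508 and 7686 at 12 h and 2966, 2796 and 2815 in quiescent cells, and rose by 1.41 ± 0.12. Nop16 rose by 1.39 ± 0.17, the nucleolar chaperone Nolc1 by 1.30 ± 0.12 and Nop56 by 1.25 ± 0.16. Nuclear pore and transport genes rose in 24 of 35 tested cases (38 listed), none fell, and the median was 0.62. Rangap1, which drives the transport cycle, rose by 2.05 ± 0.20, with 2 of its 3 probe sets called and the lowest at -0.15. The pore anchor Ndc1 rose by 1.70 ± 0.13, Nup43 by 1.64 ± 0.17, Nup85 by 1.20 ± 0.12 and the exportin Cse1l by 1.18 ± 0.10. Rangap1, Nup43 and Nup85 also act at kinetochores in mitosis.

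Of 76 mitochondrial ribosome genes tested (78 listed) 28 rose and 2 fell, with a median of 0.23. Mrps25 had 1733 and 1649 at 12 h and 731, 783 and 649 in quiescent cells, a rise of 1.25 ± 0.13. Mrpl12 rose by 1.14 ± 0.12, Mrpl20 by 0.98 ± 0.15, Mrpl18 by 0.90 ± 0.12 and Mrps6 by 0.82 ± 0.11, whereas Mrpl24 fell by 0.59 ± 0.12. Of 40 translation factors (46 listed) 9 rose and 6 fell, with a median of 0.06. The cap-binding factor Eif4e had 6869 and 7594 at 12 h and 3388, 4266 and 4080.3 in quiescent cells, and rose by 0.87 ± 0.15. For Eif4e 3 of 4 probe sets were called higher, and the lowest gave -0.03. Eef1e1 rose by 1.25 ± 0.12, and the exchange factor subunits Eif2b1 and Eif2b3 by 0.69 ± 0.12 and 0.68 ± 0.13. Of 18 aminoacyl-tRNA synthetases (20 listed) 8 rose (44.4%) and 2 fell (11.1%), against 12.4% and 17.6% of all genes, with a median of 0.24. Farsb rose by 1.04 ± 0.12, Vars by 0.88 ± 0.15, Hars by 0.86 ± 0.14 and Wars by 0.52 ± 0.12, and Eprs fell by 0.53 ± 0.11. Of 4 Eprs probe sets 3 were called lower, and the smallest fall was -0.04. Splicing factors rose in 22 of 42 tested cases (48 listed), 2 fell, and the median was 0.33. Lsm2 rose by 1.43 ± 0.12, Prpf4 by 1.01 ± 0.15, Snrpa1 by 0.98 ± 0.15, Hnrnpd by 0.91 ± 0.11 and Lsm3 by 0.88 ± 0.10. Of 24 chaperonin and cytosolic chaperone genes (26 listed) 13 rose and none fell, with a median of 0.44. The HSP90 co-chaperone Fkbp5 had 1628 and 1274 at 12 h and 602, 415 and 503 in quiescent cells, a rise of 1.5 ± 0.17. Hspa14 rose by 1.13 ± 0.11, Stip1 by 0.96 ± 0.12, Fkbp4 by 0.88 ± 0.12 and Hsph1 by 0.79 ± 0.15. For Fkbp4 2 of 3 probe sets were called higher, and the lowest gave -0.03. Proteasome genes rose in 18 of 42 tested cases (44 listed) and fell in 2, with a median of 0.26 and none past 2-fold, Psmd14 by 0.56 ± 0.12.

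Cholesterol synthesis genes rose in 19 of 20 tested cases (24 listed) and none fell, with a median of 1.00. Dhcr7, the last enzyme of the pathway, had 2308 and 1564 at 12 h and 627, 640.3 and 471 in quiescent cells, and rose by 1.77 ± 0.15. Lanosterol synthase (Lss) had 1712 and 1313 at 12 h and 404, 502 and 454 in quiescent cells, a rise of 1.70 ± 0.17. Mvd rose by 1.54 ± 0.18, Nsdhl by 1.5 ± 0.16 and Sc5d by 1.38 ± 0.13. Fatty acid genes rose in 7 of 15 cases with a median of 0.36. The elongase Elovl6 had 4477 and 3727 at 12 h and 976, 1291 and 966 in quiescent cells, a rise of 1.96 ± 0.14, and Acsl4 rose by 1.30 ± 0.12. Acetyl-CoA carboxylase (Acaca), the committed step, rose by 0.82 ± 0.15, fatty acid synthase (Fasn) by 0.81 ± 0.11 and the desaturase Scd2 by 0.61 ± 0.13. In glycolysis and the pentose phosphate pathway 11 of 23 tested genes (28 listed) rose and 2 fell, with a median of 0.28 and none past 2-fold. Lactate dehydrogenase (Ldha) rose by 0.52 ± 0.10 and Pgam1 by 0.45 ± 0.10, and the muscle-type phosphofructokinase Pfkm fell by 0.49 ± 0.11. Oxidative phosphorylation was near the background for rises, with 7 of 69 tested genes (73 listed) higher, 3 lower and a median of 0.06. There Cyc1 rose by 0.65 ± 0.10 and Ndufa6 fell by 0.82 ± 0.11.

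Of 47 lysosome genes tested (54 listed) 17 fell (36.2%, against 17.6% of all genes), 3 rose and 27 did not pass, with a median of -0.29. The cathepsin Ctso had 797 and 713 at 12 h and 1634, 1646 and 1794 in quiescent cells, and fell by 1.17 ± 0.12. The proton pump subunit Atp6v0d1 had 2219 and 1641 at 12 h and 3593, 3915 and 3893 in quiescent cells, and fell by 1.00 ± 0.13. Arsa fell by 0.82 ± 0.15, Tpp1 by 0.52 ± 0.10 and Grn by 0.47 ± 0.11. Autophagy genes fell in 17 of 30 tested cases (32 listed), none rose, and the median was -0.39. Rb1cc1, the scaffold of the ULK1 initiating kinase, had 771 and 1001 at 12 h and 2038, 2172 and 2685 in quiescent cells, and fell by 1.42 ± 0.12. The kinase Ulk1 fell by 0.92 ± 0.19 and Atg14, which guides the lipid kinase of this pathway, by 1.14 ± 0.19. The cargo receptor Sqstm1 had 4959.7 and 5467 at 12 h and 9359.7, 10697 and 10487 in quiescent cells, and fell by 0.97 ± 0.11, and the membrane tag Gabarapl1 fell by 0.82 ± 0.11. Falls in both lists were small, with 2 past 2-fold in each.

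Collagens and other matrix genes fell in 31 of 60 tested cases (64 listed) and 2 rose, with a median of -0.43. After Ogn and Aspn, the fibrillar collagen Col11a1 had 113 and 87.1 at 12 h and 573, 428 and 389 in quiescent cells, and fell by 2.0 ± 0.22. The basement membrane protein Nid2 fell by 1.93 ± 0.28. Spon2 fell by 1.79 ± 0.17, with 1887 and 1851 at 12 h and 5370.2, 4992 and 8199 in quiescent cells. Col1a1, the main collagen of fibroblasts, had 7351 and 8261 at 12 h and 14196, 14384 and 16676 in quiescent cells, and fell by 0.98 ± 0.12. Tenascin C (Tnc), a matrix protein of wounds, was higher, with 282 and 488 at 12 h and 115, 118 and 197 in quiescent cells, a rise of 1.22 ± 0.19. Of 26 matrix proteases and inhibitors tested (32 listed) 9 fell (34.6%, against 17.6% of all genes). The 4 that rose (15.4%) were near the 12.4% of all genes. The urokinase receptor Plaur, which focuses plasmin formation at the cell surface, had 2234 and 2036 at 12 h and 262, 308 and 289 in quiescent cells, and rose by 2.84 ± 0.13 (adjusted p = 1.23e-10). Timp1 rose by 1.16 ± 0.12, Adam12 by 1.67 ± 0.30 and Adam19 by 0.89 ± 0.16. The aggrecanase Adamts5 had 1370.1 and 1231 at 12 h and 5209, 5546 and 5398 in quiescent cells, and fell by 2.04 ± 0.12, Mmp11 fell by 1.86 ± 0.23 and Adamts1 by 1.85 ± 0.14.

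Of 38 integrin and adhesion genes (43 listed) 7 rose (18.4%) and 9 fell (23.7%), near the 12.4% and 17.6% of all genes. The hyaluronan receptor Cd44 had 7583 and 7963 at 12 h and 2594, 2989.5 and 3160.5 in quiescent cells, and rose by 1.39 ± 0.10. Alcam rose by 2.02 ± 0.25, and the syndecans Sdc1 and Sdc4 by 0.96 ± 0.14 and 0.76 ± 0.15. For Sdc4 1 of 2 probe sets was called, and the other gave 0.05. Zyxin (Zyx), of focal adhesions, had 2207 and 2504 at 12 h and 4123, 5397 and 7409 in quiescent cells, and fell by 1.32 ± 0.14. Only 1 of 2 Zyx probe sets was called, the other giving -0.04. Of 32 actin and SRF genes (34 listed) 6 rose (18.8%) and 10 fell (31.2%), against 12.4% and 17.6% of all genes. Among them the cofactor Fhl2 fell by 0.89 ± 0.13, and the crosslinkers Actn1 and Actn4 rose by 0.70 ± 0.10 and 0.63 ± 0.15, as did Tagln2 (0.86 ± 0.17).

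Of 31 receptor tyrosine kinases tested (35 listed) 12 fell (38.7%, against 17.6% of all genes), 3 rose and 16 did not pass, with a median of -0.21. Fgfr1, a receptor for FGF itself, had 1798 and 1484 at 12 h and 3249, 2741 and 3592 in quiescent cells, and fell by 1.00 ± 0.14. The receptors for platelet-derived growth factor, the classical fibroblast mitogen, fell too. Pdgfrb had 2824 and 2412 at 12 h and 5388, 7479.7 and 7239 in quiescent cells, a difference of -1.37 ± 0.16, and Pdgfra had 5126 and 6468 at 12 h and 11720.5, 11101 and 9571 in quiescent cells, a difference of -0.86 ± 0.14. Ephb3 fell by 1.01 ± 0.18. Epha2 went up, with 1754 and 1530.1 at 12 h and 314, 364 and 546 in quiescent cells, a rise of 1.90 ± 0.17, and the hepatocyte growth factor receptor Met rose by 0.67 ± 0.13.

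Of 30 feedback genes and targets of ERK tested (33 listed) 14 rose (46.7%, against 12.4% of all genes), with a median of 0.48. The 5 that fell (16.7%) were near the 17.6% of all genes. The AP-1 subunit Fosl1 had 3285 and 2970.2 at 12 h and 276, 392 and 311 in quiescent cells, and rose by 3.23 ± 0.19. Epiregulin (Ereg), a ligand of the EGF receptor, had 5059 and 6243 at 12 h and 711, 491 and 646 in quiescent cells, a rise of 3.16 ± 0.15, and a second ligand, Hbegf, rose by 2.62 ± 0.18. The ERK phosphatase Dusp6 had 6719.7 and 6741 at 12 h and 907, 1263 and 1559.5 in quiescent cells, and rose by 2.37 ± 0.14. Egr1 and Egr2, immediate-early factors, were lower than in quiescent cells. Egr1 had 1132 and 1404 at 12 h and 2889, 6135 and 8039 in quiescent cells, and fell by 2.19 ± 0.21, and Egr2 fell by 1.60 ± 0.31. Quiescent replicate 1a had the lowest quiescent signal for both.

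The insulin and PI3K pathway fell in 14 of 32 tested cases (37 listed) and 1 rose, with a median of -0.49. Pik3ip1, an inhibitor of PI3K, had 374 and 367 at 12 h and 1785, 3189.6 and 2058 in quiescent cells, and fell by 2.54 ± 0.18. The regulatory subunits Pik3r2 and Pik3r3 fell by 1.15 ± 0.19 and by 1.11 ± 0.16. Igfbp4, which binds insulin-like growth factors, had 4382 and 3357 at 12 h and 8902, 7733 and 9182 in quiescent cells, and fell by 1.18 ± 0.16. The stress sensor Sesn1 fell by 1.26 ± 0.23, with 3 of its 4 probe sets called lower and the smallest fall at -0.03.

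Of 38 TGF-beta, BMP and ID genes (42 listed) 5 rose (13.2%) and 9 fell (23.7%), near the 12.4% and 17.6% of all genes, with a median of -0.19. Id3, an inhibitor of differentiation factors and a BMP target, had 54.5 and 10.5 at 12 h and 215, 363 and 234 in quiescent cells, and fell by 2.73 ± 0.32, to a mean under the background limit. The ligand Tgfb3 fell by 1.26 ± 0.13, the proteinase Bmp1 by 1.22 ± 0.23 and the latency protein Ltbp4 by 0.93 ± 0.20. The decoy receptor Bambi rose by 1.18 ± 0.24 and the corepressor Tgif1 by 0.77 ± 0.11. Of 41 WNT, Notch and Hedgehog genes (47 listed) 2 rose (4.88%) and 13 fell (31.7%), against 12.4% and 17.6% of all genes. The Hedgehog co-receptor Cdon had 390.4 and 508 at 12 h and 2125, 2614 and 3147 in quiescent cells, and fell by 2.58 ± 0.16. Tcf7l1, a repressor in the WNT pathway, had 560.2 and 760.4 at 12 h and 3896, 3857 and 2379 in quiescent cells, and fell by 2.19 ± 0.20. The Notch ligand Jag1 fell by 1.28 ± 0.13 and the WNT co-receptor Lrp6 by 1.23 ± 0.12, and Wnt5a rose by 1.30 ± 0.16, with 1050.0 and 1315 at 12 h and 436, 457 and 493 in quiescent cells.

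Genes of the primary cilium, the antenna that resting fibroblasts grow and take down before division, fell in 18 of 39 tested cases (44 listed) and 1 rose, with a median of -0.49. The intraflagellar transport gene Wdr19 had 96.7 and 82.7 at 12 h and 292, 293 and 293 in quiescent cells, and fell by 1.57 ± 0.32. Ift122 had 218 and 208 at 12 h and 557, 453 and 732 in quiescent cells, and fell by 1.45 ± 0.23. Ift172 fell by 1.26 ± 0.20 and the BBSome subunit Bbs2 by 1.22 ± 0.21. Bbs12, a chaperone for the BBSome, was the exception, with 530.4 and 513 at 12 h and 267, 256 and 173 in quiescent cells, a rise of 1.24 ± 0.22.

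Clock genes had the lowest median of the lists, -0.92, with 11 of 20 tested genes (21 listed) lower and 1 higher. The output factors Tef and Hlf, relatives of Dbp, fell with it. Tef had 428 and 411 at 12 h and 1690.4, 2401 and 1819 in quiescent cells, a difference of -2.15 ± 0.18, and Hlf had 148 and 334 at 12 h and 1462, 889.7 and 1096 in quiescent cells, a difference of -2.26 ± 0.22. Per2 had 25.9 and 44.4 at 12 h, under the background limit, and 363, 235 and 195 in quiescent cells, and fell by 2.40 ± 0.34. Only 1 of 3 Per2 probe sets was called, and the smallest fall among them was -0.23. The arrays without FGF analysed here are all from 0 h, so the position of the clock and FGF cannot be told apart here.

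Of 37 quiescence and FOXO target genes tested (40 listed) 26 fell and 1 rose, the highest share of falls among the lists (70.3%), with a median of -0.82. Txnip, which restrains glucose uptake, had 1029.9 and 583 at 12 h and 6941, 6131 and 3612 in quiescent cells, and fell by 2.62 ± 0.20. Cyclin G2 (Ccng2), a cyclin of resting cells, had 461 and 536 at 12 h and 3023, 3131 and 2471 in quiescent cells, and fell by 2.44 ± 0.22. Jund, the AP-1 subunit that slows fibroblast growth, had 1699.6 and 1225 at 12 h and 11190.4, 8261 and 5348 in quiescent cells, and fell by 2.30 ± 0.19. Only 1 of 2 Jund probe sets was called, the other giving -0.22. The ubiquitin ligase Fbxo32, a FOXO target in muscle, fell by 2.20 ± 0.21. Of 28 p53 targets (31 listed) 10 fell (35.7%, against 17.6% of all genes), with a median of -0.25. The 4 that rose (14.3%) were near the 12.4% of all genes. The death receptor Fas had 127 and 133 at 12 h and 609.9, 694 and 789 in quiescent cells, and fell by 2.35 ± 0.23, and Trp53inp1 fell by 2.13 ± 0.14. Those that rose included Gtse1 (2.01 ± 0.34), a protein of G2 and mitosis that restrains p53, the death receptor Tnfrsf10b (1.28 ± 0.26) and the nuclease Aen (0.85 ± 0.14).

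Of 34 interferon response genes tested (41 listed) 18 fell and none rose, with a median of -0.67. Xaf1 had 106 and 87.8 at 12 h and 614, 558 and 522 in quiescent cells, and fell by 2.36 ± 0.21. The antiviral protein Ifit3 had 128 and 132 at 12 h and 709.9, 746 and 598 in quiescent cells, and fell by 2.23 ± 0.18. Parp9 fell by 1.41 ± 0.18 and Ifi27 by 0.94 ± 0.11. Of 42 chemokines, cytokines and their receptors (54 listed) 11 rose and 11 fell (26.2% each, against 12.4% and 17.6% of all genes). Beside Ccl2 and Tslp, the CC chemokine Ccl7 had 2850.0 and 4441 at 12 h and 891, 1338 and 1373 in quiescent cells, and rose by 1.53 ± 0.19. The TWEAK receptor Tnfrsf12a had 7204 and 6890.5 at 12 h and 1461, 1841 and 1561 in quiescent cells, a rise of 2.13 ± 0.16. Ccl9 fell by 1.51 ± 0.21 and Il18, a cytokine that induces interferon gamma, by 1.39 ± 0.16. Of 13 complement genes (20 listed) 3 fell (23.1%, near the 17.6% of all genes) and none rose: C1ra fell by 1.24 ± 0.15, C1s1 by 1.22 ± 0.21 and the inhibitor Clu by 0.85 ± 0.18.

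Of 49 genes of aldehyde, steroid and xenobiotic metabolism tested (58 listed) 21 fell and 1 rose, with a median of -0.26. After the aldehyde and steroid enzymes above, Cyp26b1, which breaks down retinoic acid, had 283 and 411 at 12 h and 1707, 1398 and 1740.3 in quiescent cells, and fell by 2.22 ± 0.21. Aldh1a1, which makes retinoic acid, and Cyp26b1, which removes it, were therefore both lower. Cyp1b1 fell by 1.61 ± 0.17, with 2 of its 3 probe sets called lower and the highest at 0.82. Akr1b8, an aldose reductase relative known in mouse as an FGF-induced protein, rose by 0.51 ± 0.10. NRF2 targets and metallothioneins were mixed, with 7 of 20 tested genes (25 listed) higher and 6 lower. Their shares were 35.0% and 30.0%, against 12.4% and 17.6% of all genes. The cystine transporter Slc7a11 rose by 1.42 ± 0.22, Nqo1 by 1.07 ± 0.14, glutathione reductase (Gsr) by 1.00 ± 0.11 and the extracellular superoxide dismutase Sod3 by 1.17 ± 0.13. Haem oxygenase (Hmox1) had 4993 and 3399 at 12 h and 9609, 8655 and 6424 in quiescent cells, and fell by 0.89 ± 0.13.

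The medians of these lists in other states of the series are given beside those at 12 h without a test, because all are set against the same quiescent arrays. The 1 h state had 1 array, and the states at 4, 7 and 12 h and at 12 h with U0126 from before FGF had 2 each. Origin licensing genes had medians of -0.11 at 1 h, 0.09 at 4 h, 0.77 at 7 h and 2.02 at 12 h, and -0.05 at 12 h with U0126 (20 µM). Kinetochore genes had -0.19, -0.18, -0.06 and 1.70 at those times, and -0.16 with U0126. Ribosome biogenesis genes were at 0.11, 0.93, 0.96 and 0.82, and at 0.28 with U0126. Replication genes were thus already above quiescence at 7 h, kinetochore genes had their high median at 12 h only, and ribosome genes were level from 4 h. Quiescence and FOXO targets had 0.05, -0.66, -0.84 and -0.82, and -0.19 with U0126, and clock genes 0.28, -0.15, -0.75 and -0.92, and -0.41 with U0126. Cholesterol synthesis genes had 0.16, 0.40, 0.52 and 1.00, and 0.90 at 12 h with U0126. Proteasome genes had 0.26 at 12 h and 0.33 with U0126, and fatty acid genes 0.36 and 0.39. The interferon list was at -0.67 at 12 h and -0.46 with U0126.

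Single genes at the top of the comparison differed in when they moved. Cdc6 was -0.52 at 1 h, 0.77 at 4 h, 2.58 at 7 h and 4.23 at 12 h, and -1.09 at 12 h with U0126. Esco2 was -1.15, -0.19, 0.40 and 3.47, and -0.41 with U0126, and Bub1 -0.40, 0.01, 0.19 and 2.78, and -0.69. Hmga2 was near its 12 h value from 4 h on, with -0.52, 3.42, 3.68 and 3.77, and -0.12 with U0126. Tslp was at 1.32, 2.97, 3.86 and 3.61, and at 0.12 with U0126. Among the falls, Dbp was -0.17, -2.87, -3.51 and -3.52, and -2.54 with U0126, whereas Sox6 was 0.64, -1.29, -2.12 and -2.97, and 0.00 with U0126. Ogn was 0.22, -0.55, -1.16 and -3.20, with -2.02 with U0126. Akr1c14 was 0.06, -2.19, -3.17 and -3.70, and -1.95 with U0126.

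**Figure D5:**
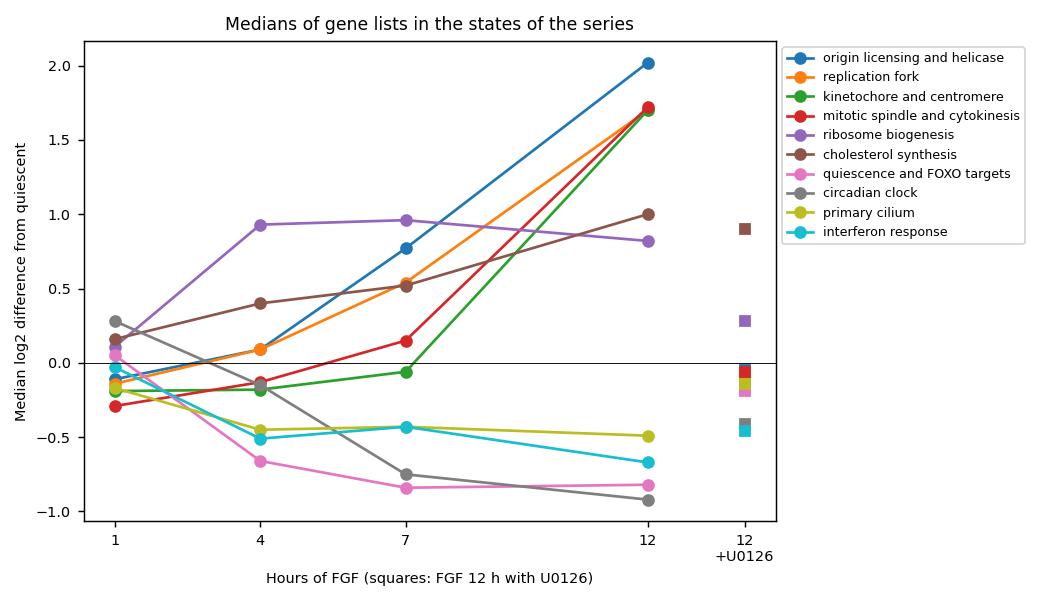
Median log2 difference from quiescent cells (y axis) of 10 gene lists at 1, 4, 7 and 12 h of FGF (circles and lines, x axis in hours) and at 12 h of FGF with U0126 (squares). All values share the quiescent arrays, and the 1 h state is 1 array. Replication and mitosis lists end highest at 12 h, ribosome biogenesis is level from 4 h, and cholesterol synthesis has the highest square, 0.90.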

How the data were processed

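RNA of NIH3T3 cells was measured on 19 Affymetrix arrays, of which 2 (FGF 12 h) and 3 (quiescent) form the comparison. The deposited values are MAS5 signal intensity on a linear scale, per the submitters' processing notes, which give no version, and their trimmed mean is 500 on every array. Presence calls were not used here. Probe sets were named through the platform annotation of the array (34945 of 45101 had 1 gene, 932 several, 9160 none, 64 were controls), and 204 symbols were not in the gene reference and kept as they stood.

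An offset of 13.6 (the 20th percentile over all arrays) was added and log2 taken, so changes of low genes come out too small. A probe set had to exceed its array's 40th percentile on 2 or more arrays, and the one with the highest mean stood for each of 14996 genes. Other probe sets of the same gene were called in the opposite direction in 43 of 7114 genes with several. Not every probe set of a named gene was called, and such cases are given for some genes only. All 11 groups (18 columns, quiescent replicates 1a and 1b averaged) were fitted together in R 4.3.3 by limma 3.58.1, with empirical Bayes, a variance trend and the experiment number as a block. The fit had 6 residual and 11.6 prior degrees of freedom. P-values are two-sided and adjusted by Benjamini-Hochberg over all genes, with a limit of 0.05. The pairing comes from experiment numbers in the labels. Deviations of same-numbered samples correlated with r from 0.127 to 0.305 (median 0.21) in 21 pairs of groups. Quiescent replicates 1a and 1b correlated with r = 0.973 across probe sets, which are not independent. With quiescent replicate 2 of the other experiment, r was 0.972 for 1a and 0.974 for 1b.

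Genes could be named for size or list membership if they passed here and under the other settings where tested, with the same sign in both experiments. That condition left out the fit of the compared groups alone, with 1 residual degree of freedom, and the test of every probe set on its own. The higher-group mean of such a gene also had to be above 73.9, the median of all values. The 15 largest rises and falls, up to 5 members per list and up to 2 that moved against the rest were taken, plus all E2F, MuvB, cyclin and CDK inhibitor genes and Actb. The comparison and its 54 gene lists were chosen with earlier results of these data known, so lists are described by counts and medians beside those of all genes. Alternatives were no block, quantile and 75th percentile scaling, offsets of 1 and 45.2, no or a stricter filter, no trend in the variance, quiescent arrays kept separate (3), the most variable probe set of a gene, every probe set alone, only the compared groups, and leaving out each array. The workflow was tested on simulated data. Promoter words were counted in RefSeq windows (GRCm38.p6). Figures were drawn with matplotlib 3.10.9.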

Additional observations from a re-analysis of the deposited data

Results flagged for a closer look

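Probe sets that the annotation pairs with no gene or with several were outside the comparison. In a fit of their own, added after the data were seen, 6622 were tested and 513 passed (7.75%), of which 284 were higher and 229 lower at FGF 12 h, 132 and 97 of them at least 2-fold. This is a signal in data that the comparison does not use. The largest rise with the gene unnamed was probe set 1443394_at, with 448 and 760.1 at 12 h and 24.2, 68.8 and 36.7 in quiescent cells (3.50 ± 0.31, adjusted p = 7.59e-08). Probe set 1419172_at had 2277 and 1668 at 12 h and 243.5, 238 and 159.7 in quiescent cells (3.22 ± 0.23). The largest fall was probe set 1449556_at, with 166 and 170.4 at 12 h and 1105, 1264 and 943 in quiescent cells (-2.56 ± 0.16). Probe set 1457442_at had 9.8 and 12.6 at 12 h, under the background limit, and 122, 81.7 and 152 in quiescent cells (-2.47 ± 0.44). No group had the 4 samples that a test for outlying samples needs.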

How the results depend on the processing

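The main counts, 4503 genes changed and 1331 at least 2-fold, were within 1.5 times under every alternative except when all probe sets were tested on their own, where 7415 and 2393 passed out of a larger number of features. Without the experiment number as a block 3049 and 1202 genes passed. Leaving out 1 array at a time gave 3096 to 4563 and 1186 to 1371, with the lowest count of changed genes without quiescent replicate 2. A group left with 1 array was taken to have the spread of the rest. With only the compared groups in the fit, which leaves 1 residual degree of freedom, 4674 and 1406 passed. In all, 1714 genes passed under the settings where tested, 841 higher and 873 lower. The fit of the compared groups alone and the test of every probe set on its own were left out of this count. For the 268 named genes 4232 recomputed values kept direction and side of the threshold, 30 lost the call, 23 gained one, and 1 turned sign: Ccnd2 at 0.64 with the probe set of highest variance, which is another probe set of the gene. Leaving out the block ended the calls of Rb1, Rbbp4, Foxm1 and Cdkn1a and no other named call. Of the counts of changed genes in 54 lists, 835 recomputed values were within 1.5 times of the main count and 83 were not. Depth is not known for array signals, and differences of genes whose low group averaged under 45.2 are limited by background.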
